A study of Homo sapiens with 12 samples.

Results

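Cells release proteins that start or restrain the growth of blood vessels, and 9 genes for such secreted regulators of angiogenesis were followed in TC71, an established human Ewing sarcoma cell line. The genes were SERPINF1 and THBS1 (inhibitors), VEGFA, VEGFB and VEGFC (growth factors of vessels), ANGPT1 and ANGPT2 (angiopoietins), and STC1 and STC2 (stanniocalcins). They were found by symbol as 9 of the 21569 rows of a gene count table. They were chosen by their role and with values of these same libraries known, in particular the low SERPINF1 level of both knockout clones. Their levels and differences are therefore given as a description, with no p-value, and nothing is read from how many of them differ.

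The table held 12 libraries of polyadenylated RNA in 4 groups of 3. The wildtype group is TC71 with its ID2 gene intact. Clone 1 and clone 2 are separate ID2 knockout lines of TC71, each a single clone, and the rescue group is clone 2 with ID2 given back. The labels do not name the guide, the edit, the rescue construct or its promoter. All groups grew in DMEM with 10% fetal bovine serum, with no vessel cells or low oxygen named. The series asks which genes ID2 regulates, and 5 comparisons follow from it: each clone against wildtype, rescue against clone 2, rescue against wildtype, and clone 2 against clone 1. The comparisons share groups, so they are not independent of each other. Whether replicates were grown as separate cultures is not given in the labels, so p-values cover only the library-to-library spread, possibly technical.

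The VEGF proteins are secreted dimers that bind receptor tyrosine kinases on the cells lining vessels. VEGFA acts through FLT1 and KDR and drives sprouting, VEGFB binds FLT1, and VEGFC acts mainly through FLT4 on lymphatic vessels. ANGPT1 activates the receptor TEK and steadies vessels, while ANGPT2 competes for that receptor. SERPINF1 encodes pigment epithelium-derived factor, and THBS1 encodes thrombospondin-1, which acts in part through CD36 and CD47. Stanniocalcins are secreted glycoproteins first known from calcium balance, and both are known to be induced in tumor cells short of oxygen. ID2 is a helix-loop-helix protein with no DNA-binding domain. It pairs with E proteins, which otherwise bind the E-box, a short motif written CANNTG.

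Libraries held 19420408 to 29748084 counts. Levels are in CPM, the count of a gene relative to its library total, after TMM scaling, which adjusts each library total for differences in composition, and a mean is given with its SD over n = 3 libraries. Differences are log2 fold changes from 1 edgeR quasi-likelihood fit over 17084 genes. Called means a p below 0.05 after Benjamini-Hochberg adjustment over all of these genes. Markers of Ewing sarcoma cells were present in every library, with CD99 at 323 to 515 CPM, NR0B1 at 112 to 229 CPM and NKX2-2 at 8.62 to 24.2 CPM. In bulk RNA, fewer cells that make a transcript and less of it per cell cannot be told apart.

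The labels were checked by ID2 itself. ID2 RNA stood at 77.6, 78.6 and 77.4 CPM in wildtype, at 17.9, 17.4 and 18.9 CPM in clone 1, and at 47.8, 50.8 and 54.1 CPM in clone 2. It fell in clone 1 by 2.11 on the log2 scale (SE 0.051, adjusted p = 3.02e-31) and in clone 2 by 0.62 (SE 0.044, adjusted p = 1.54e-15). The libraries labelled rescue held 42.0, 41.6 and 40.9 CPM, below clone 2 by a log2 difference of -0.29 (SE 0.047, adjusted p = 3.52e-06). ID2 RNA was therefore opposite in direction to the rescue label, and clone 2 kept most of its ID2 transcript. With the edit and the rescue construct not given, RNA alone cannot decide whether working ID2 was lost or restored. ID2 protein was not measured in these data, so the labels were not tested further. Every direction below that involves rescue is that of the libraries labelled rescue.

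The stretches below show where E-boxes lie before the RefSeq start of 2 of the genes, printed because ID2 acts on proteins that bind this motif. RefSeq (GRCh38.p14) promoters were searched for 4 of the 9 genes, STC2, VEGFB, VEGFC and THBS1. The 250 bases before each start were read on both strands. No promoter entry was found for SERPINF1 and VEGFA. STC1, ANGPT1 and ANGPT2 were left out of the search, whether or not RefSeq holds a promoter for them. The motif results below therefore cover the 4 searched genes only. CANNTG was found 2 times for STC2, 78 and 57 bases before the start, and 1 time for VEGFB, 49 bases before it. Each stretch is 30 bases, 5′ to 3′ along the gene, with the E-boxes in capitals. STC2 is on the minus strand at chr5:173328464-173328493 and VEGFB is on the plus strand at chr11:64234523-64234552. GENCODE 29 places the outermost start of STC2 farther upstream, at 173329503, and that of VEGFB at 64234538, so the STC2 stretch lies inside that gene model and the VEGFB stretch crosses its first base.
STC2: aCACCTGctcgactccttcattCAAGTGac
VEGFB: gcgtgtctgggtCACATGagccgcctgccc
The motif is common: 61.8% of 35116 RefSeq promoters of that length held it. The VEGFC and THBS1 windows did not. The VEGFC window, chr4:176792923-176793172, ends upstream of the GENCODE 29 start at 176792727. The bases next to that start were therefore not read for either motif. ACGTG, the core of the site bound by hypoxia-inducible factors, was in none of the 4 windows and in 18.5% of all promoters. A match describes letters only, and binding of E proteins was not measured.

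Of the 9 genes, 6 passed the filter on low counts (SERPINF1, STC1, STC2, VEGFA, VEGFB and ANGPT1), while VEGFC, ANGPT2 and THBS1 did not. In clone 1 against wildtype 4 of the 6 were called lower and 0 higher, beside 30.7% of all tested genes called lower and 30.8% called higher. In clone 2 against wildtype 5 were called lower and 0 higher, beside 30.6% and 31.5% of all genes. In rescue against clone 2, 2 were called higher and 2 lower, beside 19.3% and 19.9%. In rescue against wildtype 5 were called lower and 0 higher, beside 29.9% and 28.5%. In clone 2 against clone 1, 3 were called higher and 3 lower, beside 30.3% and 31.9%. The median log2 difference of the 6 was -0.63 in clone 1 and -0.90 in clone 2, while the median over all tested genes was 0.01 in each.

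**Figure D1:**
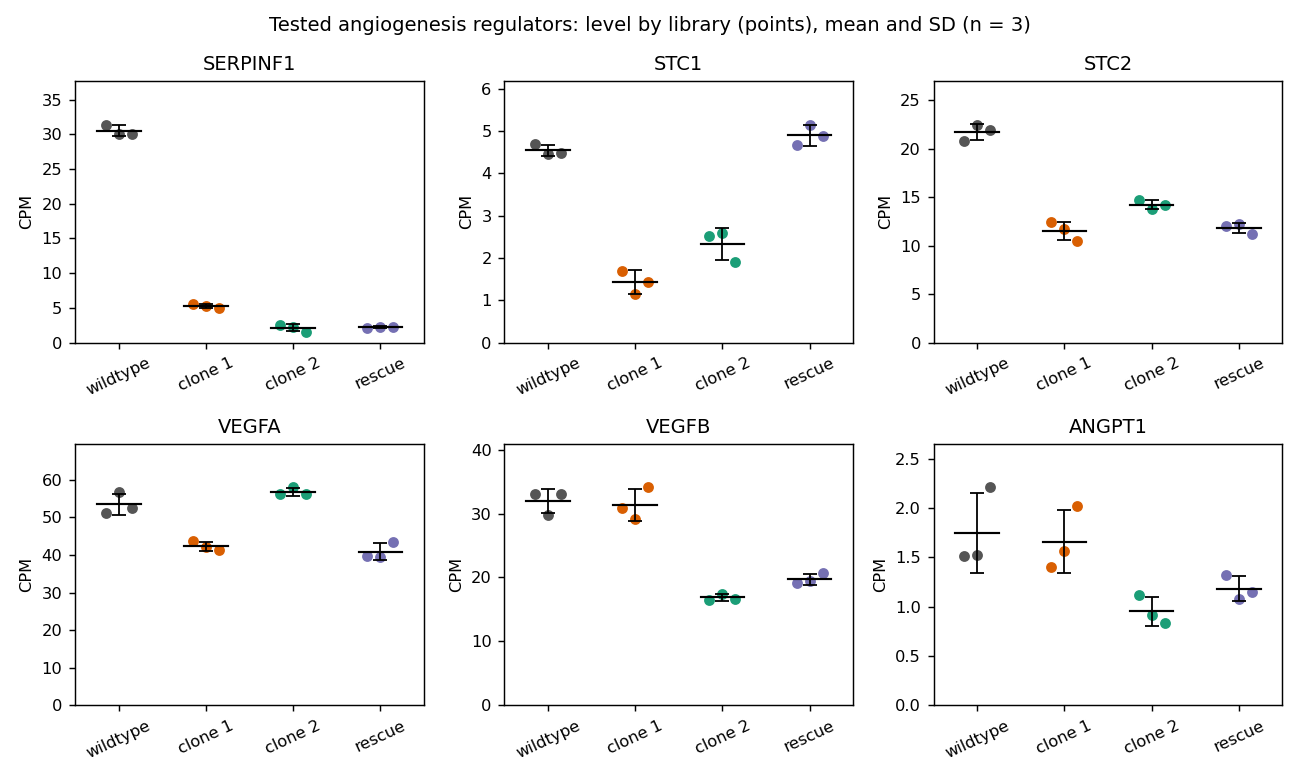
Level of each of the 6 tested genes in CPM (vertical axis, linear, from 0) by group (horizontal axis); points are libraries, the bar is the mean and the error bar the SD over 3 libraries. SERPINF1 is high in wildtype alone, STC1 is as high in rescue as in wildtype, and VEGFB is low in clone 2 and rescue.

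SERPINF1, the secreted inhibitor known as pigment epithelium-derived factor, had the largest differences from wildtype of the 6. Its levels were 31.4, 30.1 and 30.1 CPM in wildtype and 5.55, 5.23 and 4.98 CPM in clone 1. In clone 2 they were 2.58, 2.28 and 1.57 CPM, and in rescue 2.06, 2.32 and 2.22 CPM. All wildtype libraries were above all others, clone 1 was above clone 2 and rescue, and clone 2 and rescue overlapped. In reads this was 748, 635 and 872 in wildtype against 74, 45 and 34 in clone 2, so even the lowest level rests on 34 reads. The log2 difference from wildtype was -2.54 (SE 0.083) in clone 1, -3.80 (SE 0.10) in clone 2 and -3.79 (SE 0.097) in rescue. Rescue against clone 2 gave 0.01 (SE 0.163) and was not called.

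The gene (ENSG00000132386) lies on the plus strand of chromosome 17 at 1761959 to 1777574 (hg38, GENCODE 29). Its neighbours did not share its difference. WDR81, on one side, rose from 29.4 CPM in wildtype to 35.9 in clone 1 (log2 0.29, SE 0.055) and 36.4 in clone 2 (log2 0.32, SE 0.055), with adjusted p = 1.61e-05 and 4e-06. SMYD4, on the other side, had 12.5 CPM in wildtype, 12.6 in clone 1 and 12.5 in clone 2, and was not called. Of 27 genes with at least 1 CPM within 1 Mb, the lowest log2 difference was -0.339 in clone 1 and -0.401 in clone 2, with medians of 0.02 and 0.03. The highest was 2.67 in clone 1 and 2.17 in clone 2. In rescue against wildtype the 27 genes ran from -0.96 to 2.42.

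THBS1, the other inhibitor (ENSG00000137801, chromosome 15 at 39581079 to 39599466, plus strand), was near the limit of detection. It had 3, 4 and 5 reads in wildtype, 4, 5 and 5 in clone 1, 8, 2 and 10 in clone 2, and 10, 9 and 8 in rescue. The rescue libraries were above the wildtype libraries, and clone 2 overlapped both. Scaled for library size, rescue held 2.1 times the wildtype reads (95% exact interval 1.03 to 4.55), clone 1 held 1.19 times (0.511 to 2.82) and clone 2 held 1.76 times (0.82 to 3.95). These intervals cover counting error only and not the spread between cultures. SERPINF1 and THBS1, both inhibitors, thus stood far apart in level in wildtype, at 9.94 and 0.0178 CPM per kilobase of annotated exon.

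The partners through which SERPINF1 and THBS1 act were almost all expressed, and 12 of a list of 12 were tested. In clone 1 8 rose and 2 fell (66.7% and 16.7%), and in clone 2 7 rose and 3 fell (58.3% and 25%). In rescue against clone 2, 2 rose and 7 fell (16.7% and 58.3%). Over all tested genes the shares were 30.8% and 30.7%, 31.5% and 30.6%, and 19.3% and 19.9%. The median log2 differences of the list were 0.33, 0.27 and -0.18. CD36, a scavenger receptor that binds thrombospondin, rose from 0.386 ± 0.0586 CPM in wildtype to 27.8 ± 2.6 in clone 1 (log2 6.14, SE 0.145, adjusted p = 1.17e-31). It rose to 3.29 ± 0.372 CPM in clone 2 (log2 3.05, SE 0.23, adjusted p = 7.08e-15) and was lower in rescue, at 1.11 ± 0.165 CPM. CD47, the other thrombospondin receptor named above, had 44.3, 44.1, 41.2 and 43.8 CPM in wildtype, clone 1, clone 2 and rescue and was not called in either clone; it is outside the rule for named genes and was named after its values were seen. PLXDC1, a membrane receptor for pigment epithelium-derived factor, rose from 0.525 ± 0.215 to 1.88 ± 0.188 CPM in clone 1 (adjusted p = 5.92e-08) and 1.52 ± 0.255 CPM in clone 2 (adjusted p = 6.35e-06). PNPLA2, a lipase that binds the same factor, went 2 ways: it rose from 44.0 ± 3.62 to 60.1 ± 2.35 CPM in clone 1 and fell to 29.1 ± 2.17 CPM in clone 2. PNPLA2 is on chromosome 11, whose genes were low in clone 2 as given below for VEGFB.

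VEGFA, the main driver of sprouting, was at 51.3, 56.7 and 52.6 CPM in wildtype and 56.2, 58.0 and 56.2 CPM in clone 2. It was at 43.6, 42.2 and 41.2 CPM in clone 1 and 39.6, 39.5 and 43.4 CPM in rescue. Wildtype and clone 2 overlapped above, clone 1 and rescue overlapped below, and the pairs did not overlap each other. The log2 difference from wildtype was -0.34 (SE 0.048) in clone 1 and -0.39 (SE 0.047) in rescue. Clone 2 differed from wildtype by 0.09 (SE 0.046) and was not called. That value was called higher at 0.12 without wildtype replicate 2 and at 0.16 with upper quartile scaling, which raised the median of all genes to 0.08. Rescue against clone 2 gave -0.48 (SE 0.047). VEGFA (ENSG00000112715) lies on chromosome 6 at 43770184 to 43786487, plus strand. The genes of that chromosome with at least 1 CPM had a median of -0.21 in clone 1, with 70.7% below 0, and -0.11 in clone 2. The 38 genes within 1 Mb had medians of -0.02 and -0.07. The part of the chromosome-wide level in the VEGFA value was not tested.

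VEGFB was at 33.1, 29.8 and 33.0 CPM in wildtype and 30.8, 29.2 and 34.1 CPM in clone 1, and these groups overlapped. It was at 16.5, 17.4 and 16.7 CPM in clone 2 and 19.1, 19.4 and 20.7 CPM in rescue, each below both other groups and not overlapping each other. The log2 difference from wildtype was -0.03 (SE 0.058, not called) in clone 1, -0.93 (SE 0.064) in clone 2 and -0.70 (SE 0.061) in rescue. Rescue against clone 2 gave 0.23 (SE 0.068).

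Genes of chromosome 11, where VEGFB lies (ENSG00000173511, 64234538 to 64238793, plus strand), were low in clone 2 as a whole. The 710 genes of the chromosome with at least 1 CPM had a median log2 difference of -0.60 in clone 2 against wildtype, with 88.9% below 0, and of -0.55 in rescue against wildtype. In clone 1 their median was -0.01. Within 1 Mb of VEGFB, 38 of 44 genes fell and 3 rose in clone 2, with a median of -0.54. In clone 1, 8 of the 44 fell and 22 rose, with a median of 0.14. VEGFB, at -0.93 in clone 2, was below both medians, and 1 of the 44 neighbours was lower. The nearest genes on either side differed: DNAJC4 rose from 2.91 to 4.09 CPM in clone 2 (log2 0.51, SE 0.142, adjusted p = 0.002), and FKBP2 fell from 37.6 to 27.4 CPM (log2 -0.46, SE 0.058, adjusted p = 5.45e-09). The part of the chromosome-wide level in the VEGFB value was not tested, and DNA copy number was not measured.

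**Figure D2:**
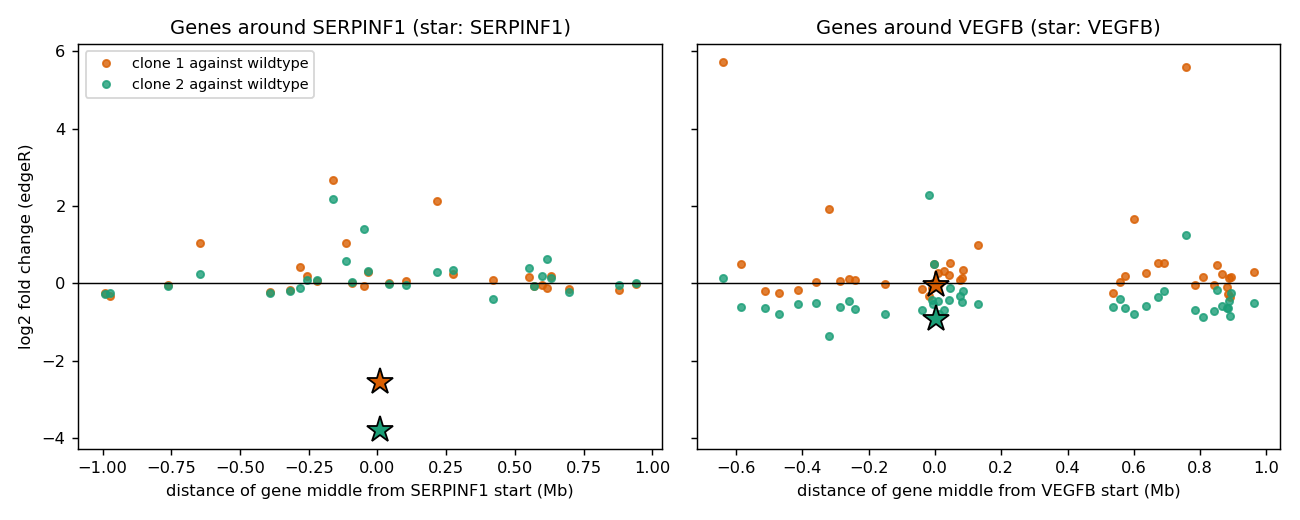
Log2 difference from wildtype (vertical axis) of genes with at least 1 CPM within 1 Mb of SERPINF1 and of VEGFB against the distance in Mb of each gene's middle from the start of that regulator (horizontal axis), for clone 1 and clone 2. The genes around SERPINF1 have medians of 0.02 and 0.03, and those around VEGFB have medians of 0.14 in clone 1 and -0.54 in clone 2.

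The ratio of VEGFA to VEGFB reads set clone 2 and rescue apart from the other groups. For each VEGFB read there were 1.55, 1.9 and 1.59 VEGFA reads in wildtype and 1.41, 1.45 and 1.21 in clone 1. In clone 2 there were 3.4, 3.34 and 3.37, and in rescue 2.07, 2.04 and 2.1. Clone 2 stood above all other libraries and rescue was next. These are ratios of reads and not of molecules, since VEGFA has the longer transcripts. Per kilobase of the longest coding transcript, wildtype held 23.2 CPM of VEGFB and 15.1 CPM of VEGFA, and clone 2 held 12.2 and 16.1. With all annotated exons as the length, 14431 bases for VEGFA, its wildtype level was 3.71 CPM per kilobase beside 20.7 for VEGFB, so the order of the pair in clone 2 depends on which length is used.

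VEGFC, the lymphatic growth factor (ENSG00000150630, chromosome 4 at 176683538 to 176792727, minus strand), had 2, 1 and 8 reads in wildtype and 0, 1 and 1 in clone 1. It had 10, 5 and 6 reads in clone 2 and 6, 2 and 3 in rescue. In CPM, every clone 2 library was above every clone 1 library. Clone 2 held 10.9 times the reads of clone 1 (95% exact interval 2.66 to 95.6), and the ratio to wildtype was 0.186 (0.02 to 0.851) for clone 1 and 2.02 (0.93 to 4.63) for clone 2. Of the 11 wildtype reads, 8 came from 1 library, which the counting interval does not cover.

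**Figure D3:**
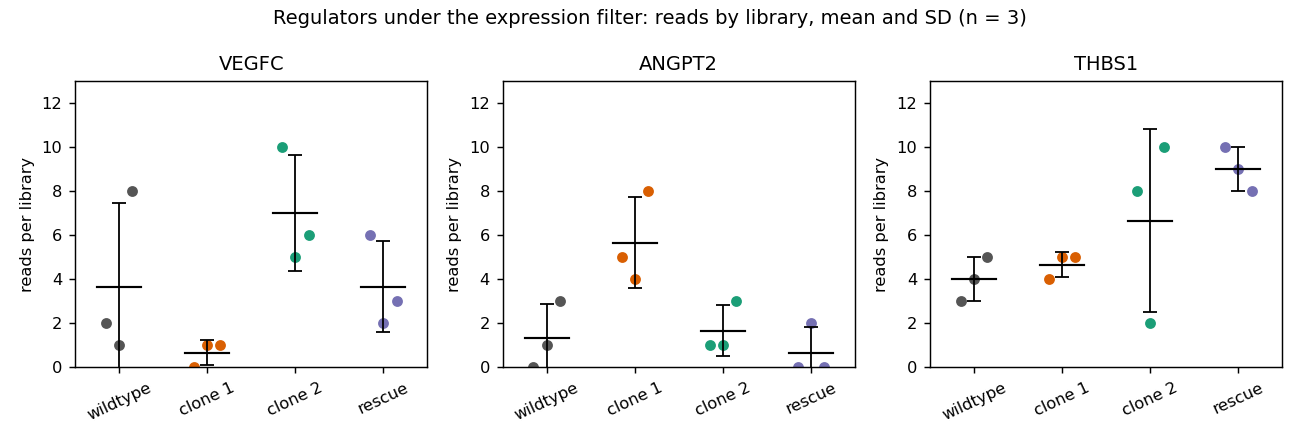
Reads of VEGFC, ANGPT2 and THBS1 (vertical axis, reads per library, from 0) by group (horizontal axis); points are libraries, the bar is the mean and the error bar the SD over 3 libraries, drawn down to 0 only. No library has more than 10 reads of any of them.

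Except in clone 1, where STC1 was lower (mean 1.43 CPM), ANGPT1, the ligand that activates TEK, was the lowest of the 6 tested genes. It was at 1.51, 1.52 and 2.21 CPM in wildtype, 1.40, 1.56 and 2.02 CPM in clone 1, 1.12, 0.911 and 0.833 CPM in clone 2, and 1.32, 1.08 and 1.15 CPM in rescue. Wildtype and clone 1 overlapped, clone 2 and rescue overlapped below them, and the upper pair did not overlap the lower. The log2 difference from wildtype was -0.87 (SE 0.233) in clone 2, -0.58 (SE 0.217) in rescue and -0.09 (SE 0.207, not called) in clone 1. The third wildtype library was the highest of the 12. Without wildtype replicate 3 the rescue difference was -0.35 and was not called, and the clone 1 difference was 0.13. The rescue call was also lost at -0.53 without rescue replicate 2 and at -0.56 without rescue replicate 3.

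ANGPT2, which competes with ANGPT1, had 0, 1 and 3 reads in wildtype, 5, 4 and 8 in clone 1, 1, 1 and 3 in clone 2, and 0, 2 and 0 in rescue. All 3 clone 1 libraries were above all others. The clone 1 reads were 4.34 times those of wildtype after scaling (95% exact interval 1.42 to 17.7), and clone 2 held 0.304 times those of clone 1 (0.0878 to 0.859). ANGPT1 (ENSG00000154188) is at 107249482 to 107498055 and ANGPT2 (ENSG00000091879) at 6499651 to 6563409 on the minus strand of chromosome 8. The genes of that chromosome with at least 1 CPM had a median log2 difference of -0.21 in clone 1 and -0.22 in clone 2.

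STC1, of the 6, was the gene as high in rescue as in wildtype. Its levels were 4.70, 4.45 and 4.48 CPM in wildtype and 4.66, 5.15 and 4.89 CPM in rescue. They were 2.51, 2.58 and 1.90 CPM in clone 2 and 1.70, 1.14 and 1.44 CPM in clone 1. Wildtype and rescue overlapped at the top, clone 2 was below them, and clone 1 was below clone 2. The log2 difference from wildtype was -1.70 (SE 0.163) in clone 1 and -0.96 (SE 0.147) in clone 2. Rescue was above clone 2 by 1.06 (SE 0.144) and differed from wildtype by 0.11 (SE 0.125), which was not called. This higher level in rescue came with an ID2 RNA level below that of clone 2, as given above.

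STC1 (ENSG00000159167) lies on chromosome 8 at 23841915 to 23854807, minus strand. The 12 genes around it within 1 Mb had a median of -0.07 in clone 1, -0.19 in clone 2 and 0.02 in rescue against clone 2.

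STC2, the paralogue of STC1, was at 20.8, 22.5 and 21.9 CPM in wildtype and 12.4, 11.7 and 10.5 CPM in clone 1. It was at 14.7, 13.8 and 14.2 CPM in clone 2 and 12, 12.2 and 11.2 CPM in rescue. All wildtype libraries were above all others, clone 2 was above clone 1 and rescue, and those last groups overlapped. The log2 difference from wildtype was -0.92 (SE 0.071) in clone 1, -0.61 (SE 0.068) in clone 2 and -0.88 (SE 0.069) in rescue. Rescue was below clone 2 by a log2 difference of -0.27 (SE 0.075), the opposite sign to STC1.

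STC2 (ENSG00000113739) lies on chromosome 5 at 173314713 to 173329503, minus strand. In clone 1, 9 of the 14 genes within 1 Mb fell and 0 rose, with a median of -0.40. The neighbour BOD1 fell from 55.6 to 29.6 CPM there (log2 -0.91, SE 0.049, adjusted p = 1.56e-19), beside -0.92 for STC2. NKX2-5, on the other side, fell from 17.4 to 14.2 CPM in clone 1 (log2 -0.30, SE 0.079, adjusted p = 0.00115) and to 14 CPM in clone 2 (log2 -0.31, SE 0.08, adjusted p = 0.000981). In clone 2, 4 of the 14 fell and 3 rose, with a median of -0.10, and BOD1 had 56.8 CPM. The part of the neighbourhood in the clone 1 value of STC2 was not tested. For each STC1 read there were 4.79 ± 0.324 STC2 reads in wildtype, 8.3 ± 1.72 in clone 1, 6.21 ± 1.11 in clone 2 and 2.41 ± 0.14 in rescue, and the rescue libraries were below all others.

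**Figure D4:**
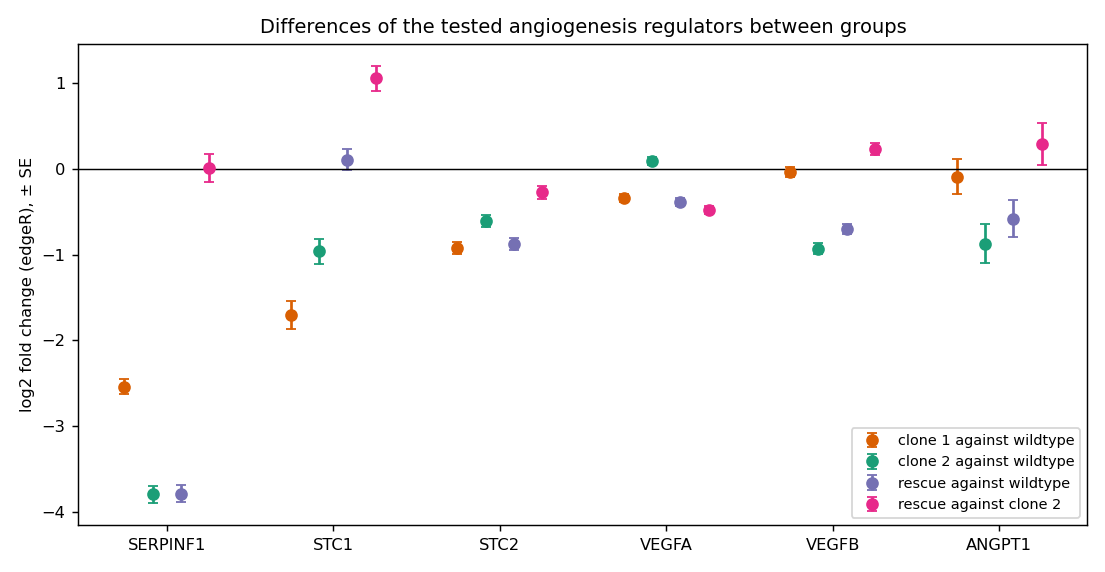
Log2 fold change with its SE (vertical axis) of the 6 tested genes (horizontal axis), from the edgeR fit. The comparisons drawn are each clone against wildtype, rescue against wildtype and rescue against clone 2. SERPINF1 lies farthest from 0 in both clones against wildtype, and STC1 stands at 1.06 in rescue against clone 2 while STC2 and VEGFA are below 0 there.

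Per kilobase of annotated exon in wildtype, the order of the 9 genes was VEGFB at 20.7 CPM, SERPINF1 at 9.94, VEGFA at 3.71, STC2 at 3.55, STC1 at 1.10, ANGPT1 at 0.245, VEGFC at 0.0561, THBS1 at 0.0178 and ANGPT2 at 0.00742. VEGFA and STC2 changed distance with the longest coding transcript as the length, at 15.1 and 4.06 CPM per kilobase, and SERPINF1 then stood at 19.7.

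For each tested gene the 3 genes of most like pattern were sought among 11596 genes with at least 1 CPM, by the root mean square difference of log2(CPM + 0.1), centred on the mean, over the 12 libraries. For SERPINF1 these were LMX1A (0.304), PIWIL2 (0.329) and ZNF43 (0.398), and LMX1A went from 3.93 CPM in wildtype to 0.534 in clone 1, 0.193 in clone 2 and 0.127 in rescue. For STC1 they were SYNE3 (0.209), CMPK2 (0.263) and NECTIN3 (0.268), and SYNE3 stood at 4.61, 1.65, 2.81 and 5.25 CPM in wildtype, clone 1, clone 2 and rescue. For STC2 they were KIAA1586 (0.116), RNF182 (0.12) and TICRR (0.121), and for VEGFA SIRPA (0.07), ANKRD46 (0.076) and JARID2 (0.08). For VEGFB they were RDX (0.075) and CTNND1 (0.077), both on chromosome 11, and SKIL (0.081) on chromosome 3. For ANGPT1 they were TAF10 (0.162) and PDE3B (0.171), both on chromosome 11, and FAM83B (0.171). The genes share libraries and depth, and a like pattern over 4 groups is a description only.

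The rest of the pathway was taken from 6 lists of other genes, which were drawn up with earlier results of these data known. Of their 118 genes, 95 were tested. In clone 1 39 rose and 33 fell, which is 41.1% and 34.7%, and in clone 2 39 rose and 35 fell, which is 41.1% and 36.8%. In rescue against clone 2, 20 rose and 39 fell, which is 21.1% and 41.1%. The shares of all tested genes that rose and fell were 30.8% and 30.7%, 31.5% and 30.6%, and 19.3% and 19.9%, and the lists below are to be read beside them. The medians were 0.05, 0.01 and -0.10, beside 0.01, 0.01 and 0.00 over all genes tested. In rescue against wildtype 28 rose and 41 fell (29.5% and 43.2%), beside 28.5% and 29.9% of all tested genes. In clone 2 against clone 1, 32 rose and 42 fell (33.7% and 44.2%), beside 30.3% and 31.9% of all tested genes. Without the 6 of these genes that lie on chromosome 11, 89 remained. Of the 89, 39 rose and 30 fell in clone 2 and 36 rose and 30 fell in clone 1, a count chosen after seeing the data. The share of all genes outside chromosome 11 was not computed.

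**Figure D5:**
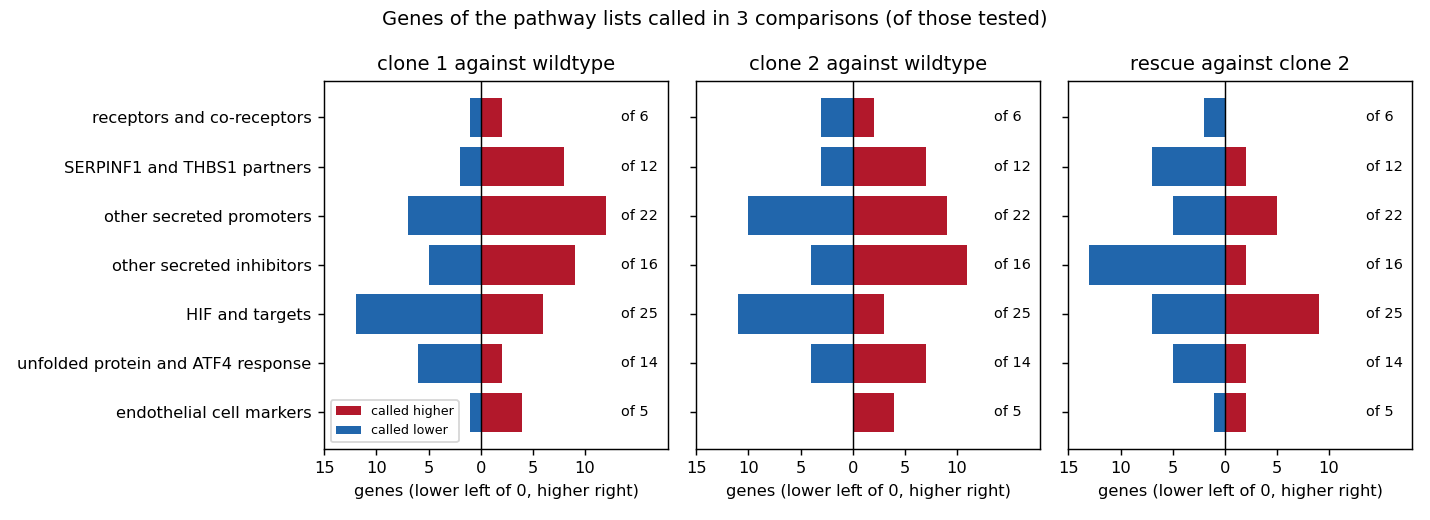
Number of genes of each list called higher (right of 0) and lower (left of 0) in 3 comparisons, with the number tested at the right. Among other secreted inhibitors 11 of 16 rose in clone 2 and 13 of 16 were lower in rescue than in clone 2.

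Of 11 listed receptors and co-receptors of the VEGF and angiopoietin ligands, 7 were in the table and 6 were tested. KDR, TEK, TIE1 and NRP2 were absent from it, and FLT1 was not tested, with group means of 0.023 to 0.177 CPM. The 6 tested were FLT4, the only receptor tyrosine kinase among them, NRP1, and the integrin subunits ITGA5, ITGAV, ITGB1 and ITGB3. Of the 6, 2 rose and 1 fell in clone 1, 2 rose and 3 fell in clone 2, and 0 rose and 2 fell in rescue against clone 2, with medians of 0.05, 0.15 and -0.05. NRP1, a co-receptor for VEGFA, rose from 24.4 ± 0.835 CPM in wildtype to 42.8 ± 1.11 in clone 1 (log2 0.80, adjusted p = 2.08e-16) and 37.4 ± 2.31 in clone 2 (log2 0.61, adjusted p = 1.39e-12). In rescue NRP1 fell to 17.4 ± 0.837 CPM, below wildtype as well. FLT4, the receptor of VEGFC, fell from 11.5 ± 0.148 to 2.32 ± 0.333 CPM in clone 1 (log2 -2.30, SE 0.117, adjusted p = 2.41e-20) and rose to 15.1 ± 1.46 CPM in clone 2 (log2 0.40, adjusted p = 4.9e-05). In clone 1 both VEGFC reads and FLT4 were thus at their lowest. The integrin subunits ITGAV and ITGB1 fell in clone 2, to 67.6 ± 1.46 from 81.2 ± 0.705 CPM and to 310 ± 5.9 from 336 ± 6.3 CPM.

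Other promoters of angiogenesis, most but not all of them secreted, moved both ways. Of 22 tested in a list of 30, 12 rose and 7 fell in clone 1, 9 rose and 10 fell in clone 2, and 5 rose and 5 fell in rescue against clone 2, with medians of 0.49, -0.06 and -0.06. In clone 1 APLN, the ligand of the apelin receptor, rose from 1.52 ± 0.175 to 11.3 ± 0.554 CPM (log2 2.90, adjusted p = 4.25e-21). TYMP, a thymidine phosphorylase, rose from 0.712 ± 0.091 to 4.67 ± 0.801 CPM there (adjusted p = 8.17e-15) and to 2.17 ± 0.583 CPM in clone 2 (adjusted p = 1.78e-07). ADM, which encodes adrenomedullin, rose from 1.30 ± 0.129 to 5.51 ± 0.14 CPM in clone 1 (adjusted p = 9.76e-15). FGF2 and PDGFC, a fibroblast and a platelet-derived growth factor, fell in clone 1 to 2.56 ± 0.358 from 4.39 ± 0.607 CPM and to 16.3 ± 1.31 from 24.5 ± 0.91 CPM.

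In clone 2 JAG1, a Notch ligand, rose from 38.9 ± 0.972 to 72.5 ± 1.28 CPM (log2 0.90, adjusted p = 3.78e-21), and HBEGF rose from 1.09 ± 0.122 to 2.38 ± 0.35 CPM. PDGFD, on chromosome 11, fell from 59.7 ± 6.12 to 26.1 ± 1.45 CPM (log2 -1.20, adjusted p = 3.85e-20), and CCN1, a matrix protein, fell from 6.55 ± 0.0362 to 2.18 ± 0.56 CPM (log2 -1.62, adjusted p = 2.41e-13). PGF, the VEGF family member that like VEGFB binds FLT1, was at 24.6 ± 3.68 CPM in wildtype, 57.9 in clone 1, 32.1 ± 1.51 in clone 2 and 86.7 ± 4.67 in rescue. Rescue was above clone 2 by 1.44 (SE 0.06, adjusted p = 2.52e-22) and above wildtype by 1.83 (adjusted p = 4.74e-26). In rescue VEGFA was thus lower and PGF higher than in clone 2.

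Other secreted inhibitors of angiogenesis numbered 16 tested in a list of 25. In clone 1 9 rose and 5 fell (56.2% and 31.2%), beside 30.8% and 30.7% of all genes and beside 54.5% and 31.8% of the promoter list. In clone 2 11 rose and 4 fell (68.8% and 25%), beside 31.5% and 30.6% of all genes. In rescue against clone 2, 2 rose and 13 fell (12.5% and 81.2%), beside 19.3% and 19.9%. The medians were 0.41, 0.67 and -0.94, and SERPINF1 itself is not in the list. SPARC, a matrix protein, rose from 189 ± 1.6 CPM to 831 ± 25.8 in clone 1 (log2 2.14, SE 0.032, adjusted p = 2.36e-38) and 390 ± 5.93 in clone 2 (log2 1.05, adjusted p = 3.18e-27). TIMP1, a metalloproteinase inhibitor, rose from 749 ± 1.53 to 1990 ± 67.5 CPM in clone 2 (log2 1.41, adjusted p = 2.13e-31) and stood at 1440 ± 57.3 CPM in rescue. TIMP3, a related inhibitor that also blocks VEGFA at KDR, fell from 101 ± 6.22 CPM in clone 2 to 34.9 ± 1.08 in rescue (log2 -1.54, adjusted p = 7.83e-27). SEMA3A, a guidance cue that binds NRP1, rose from 15.7 ± 0.556 to 36.7 ± 2.28 CPM in clone 1 (adjusted p = 5.6e-19) and stood at 45.6 ± 3.49 CPM in rescue, where NRP1 was lowest. ADAMTS8, a protease with thrombospondin repeats, fell from 2.90 ± 0.404 CPM to 0.754 ± 0.0975 in clone 1, 1.65 ± 0.288 in clone 2 and 0.48 ± 0.0226 in rescue, and it lies on chromosome 11. DCN, the proteoglycan decorin, rose from 11.4 ± 0.872 to 15.4 ± 1.46 CPM in clone 1 (adjusted p = 3.95e-05), fell to 7.68 ± 0.611 CPM in clone 2 (adjusted p = 3.01e-06) and stood at 3.83 ± 0.595 CPM in rescue.

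VEGFA, STC1 and STC2 are known to respond to low oxygen, and 25 of 26 listed hypoxia-inducible factors and targets were tested. In clone 1 6 rose and 12 fell, in clone 2 3 rose and 11 fell, and in rescue against clone 2 9 rose and 7 fell, with medians of -0.09, -0.12 and 0.10. P4HA2, a collagen prolyl hydroxylase, rose from 7.21 ± 0.596 to 18.7 ± 0.196 CPM in clone 1 (log2 1.38, adjusted p = 7.08e-19) and 10.6 ± 0.34 CPM in clone 2 (adjusted p = 3.51e-07). EGLN3, an oxygen sensor that marks hypoxia-inducible factors for destruction, fell from 1.34 ± 0.388 to 0.13 ± 0.124 CPM in clone 1 (adjusted p = 3.14e-09) and rose to 2.39 ± 0.244 CPM in clone 2 (adjusted p = 0.00124). PFKFB4 and PDK1 fell in clone 2, to 7.95 ± 1.14 from 15.1 ± 0.277 CPM (adjusted p = 6.25e-11) and to 7.30 ± 0.639 from 13.9 ± 0.485 CPM (adjusted p = 5.41e-12). LDHA, on chromosome 11, fell from 1840 ± 49.8 to 1240 ± 53.8 CPM there (adjusted p = 5.17e-18). VLDLR rose in rescue against clone 2, from 1.61 ± 0.134 to 4.08 ± 0.416 CPM (adjusted p = 1.18e-08), and KDM3A fell, from 91.4 ± 5.37 to 61.3 ± 1.93 CPM (adjusted p = 1.65e-14).

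STC2 is also known as a target of ATF4, a transcription factor of the unfolded protein response, and 14 of 14 listed genes of the unfolded protein and ATF4 response were tested. In clone 1 2 rose and 6 fell, in clone 2 7 rose and 4 fell, and in rescue against clone 2 2 rose and 5 fell, with medians of 0.02, 0.06 and 0.01. ATF4 itself fell from 558 ± 3.61 CPM to 352 ± 12.5 in clone 1 (log2 -0.67, adjusted p = 1.61e-20). It fell to 432 ± 22.3 CPM in clone 2 (log2 -0.37, adjusted p = 1.12e-12). In rescue ATF4 was at 444 ± 7.79 CPM. STC2 had means of 11.5, 14.2 and 11.8 CPM in clone 1, clone 2 and rescue. The part of ATF4 in the STC2 level was not tested. CHAC1, another ATF4 target, fell from 4.66 ± 0.323 to 2.27 ± 0.178 CPM in clone 1 (adjusted p = 9.9e-08) and 3.30 ± 0.534 CPM in clone 2 (adjusted p = 0.00277). DDIT3, a stress factor downstream of ATF4, rose from 6.10 ± 0.932 to 11 ± 1.21 CPM in clone 2 (adjusted p = 2.63e-09), and TRIB3 rose from 36.0 ± 0.547 to 46.2 ± 0.847 CPM in clone 1 (adjusted p = 1.48e-08).

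Endothelial markers were read as a check for vessel cells, which respond to these ligands and also make ANGPT2. Of 14 markers, 7 were in the table and 5 were tested, while PECAM1, VWF, ERG, TIE1, KDR, ROBO4 and MMRN1 were absent from it. In clone 1 4 rose and 1 fell, in clone 2 4 rose and 0 fell, and in rescue against clone 2 2 rose and 1 fell. Their summed level was 37.4 to 39.6 CPM in wildtype, 143 to 151 CPM in clone 1, 72.0 to 80.0 CPM in clone 2 and 66.4 to 67.8 CPM in rescue. Most of the clone 1 sum was ENG, a TGF-beta co-receptor that rose from 15 ± 1.34 to 105 ± 1.79 CPM (adjusted p = 4.5e-35). EMCN, a sialoglycoprotein of vessel walls, rose from 0.835 ± 0.0967 to 8.35 ± 0.73 CPM there (adjusted p = 2.1e-20), and CLDN5 rose from 1.51 ± 0.495 to 5.39 ± 0.688 CPM in clone 2 (adjusted p = 1.44e-12). ESAM was the marker that fell in clone 1, from 2.79 ± 0.328 to 1.89 ± 0.0356 CPM (adjusted p = 0.00375). The defining marker CDH5 had 6 reads in the 3 wildtype libraries, 12 in clone 1, 3 in clone 2 and 3 in rescue, and LYVE1 had 10, 4, 12 and 9. None of the 7 was at 0 in a whole group. Both the marker sum and the ANGPT2 reads were highest in clone 1. The part of these markers in the levels of the secreted regulators was not tested.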

How the data were processed

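RNA-seq of polyadenylated RNA was made with a stranded mRNA kit, per the labels' protocols. The authors deposited 1 table of raw read counts by gene. The submitters' processing notes name FastQC, STAR and the build hg38. Counter, strand setting, annotation and filter: not given in the sources used here, so reads of overlapping or antisense genes may be split wrongly. Symbols matched 20717 of 21569 identifiers and GENCODE 29 held 20825.

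The test was edgeR 4.0.16 (R 4.3.3, limma 3.58.1) with TMM scaling, expression filter at a minimum count of 10, 1 mean per group, all 12 libraries in 1 quasi-likelihood fit with 8 residual degrees of freedom, and Benjamini-Hochberg adjustment over 17084 genes, which held at least 99.9% of each library's counts. Procedures were tested on simulated data. Pairs of replicates differed by more than sampling noise (chi-square per degree of freedom 1.54 to 3.16), so none was counted as a duplicate. Intervals of read ratios are exact 95% intervals and cover counting error only.

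The 9 genes and all lists were chosen with earlier results of these data known. Named genes were ID2, the 9, the 3 most like each tested one, and up to 3 higher and 3 lower called genes per list and comparison with at least 1 CPM and no overlap between groups; not all of these are described, and flanking genes were named by position, with 1 result not reported here. Alternatives were other scalings and filters, DESeq2 1.42.0, limma-voom, a replicate block, fits of only the groups compared, and leaving out each library.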

Additional observations from a re-analysis of the deposited data

Results flagged for a closer look

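Of the list genes that the rule for named genes picks in either clone, 9 moved in opposite directions from wildtype in the 2 knockout clones, were called in each, and differed between the clones by a log2 difference of at least 1 in the edgeR contrast of clone 2 against clone 1. All levels are mean CPM in wildtype, clone 1 and clone 2.

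FLT4, the VEGFC receptor, stood at 11.5, 2.32 and 15.1 CPM, a log2 difference between the clones of 2.69 (adjusted p = 2.25e-23). EGLN3 stood at 1.34, 0.13 and 2.39 CPM, a difference of 4.08 (adjusted p = 3.93e-13) that rests on 10 reads in clone 1. COL4A3, a source of the vessel inhibitor tumstatin, stood at 0.552, 0.27 and 2.46 CPM, a difference of 3.18 (adjusted p = 7.19e-13). Its fall from wildtype in clone 1 rests on 19 clone 1 reads (edgeR adjusted p = 0.02). SDC1, a heparan sulfate proteoglycan, stood at 1.68, 1.12 and 5.43 CPM, a difference of 2.27 (adjusted p = 6.69e-14). Its fall from wildtype in clone 1 was near the limit for a call (edgeR adjusted p = 0.0397). TIMP2 stood at 8.05, 2.66 and 10.0 CPM, a difference of 1.91 (adjusted p = 7.03e-18). ADAMTS1, a protease that binds VEGFA, stood at 62.3, 29.3 and 80.6 CPM, a difference of 1.46 (adjusted p = 1.69e-27).

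The other 3 were lower in clone 2 than in clone 1. CCN1 stood at 6.55, 10.9 and 2.18 CPM, a difference of -2.36 (adjusted p = 1.26e-19). CCN2 stood at 1.75, 2.87 and 0.912 CPM, a difference of -1.64. PNPLA2, on chromosome 11, stood at 44.0, 60.1 and 29.1 CPM, a difference of -1.04 (adjusted p = 6.23e-20).

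Of all tested list genes, 13 met these limits. The share of all 17084 tested genes that meet them was not computed, so neither 9 nor 13 is read as a trait of the lists. The other 4 fall outside the naming rule and are given after their values were seen. APELA stood at 19.9, 43.8 and 13.1 CPM, MDK at 17.3, 24.2 and 11.1 CPM, and EPAS1 at 0.374, 0.167 and 0.995 CPM. The fall of EPAS1 in clone 1 rests on 13 clone 1 reads and was near the limit for a call (edgeR adjusted p = 0.0498). CXCL12 stood at 1.03 CPM in wildtype and 1.96 CPM in clone 2 and had 0 reads in clone 1, where 3 counts over the group would be 0.0414 CPM.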

How the results depend on the processing

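The counts of called regulators and of called pathway genes stayed within 1.5 times their value in all 220 values from the alternatives run. While 6 regulators are tested, their count cannot pass that limit upward. Without a filter all 9 were tested, and 6 were called in clone 1 against wildtype and 7 in clone 2 against clone 1. With the replicate block, called regulators were 4, 5, 4, 5 and 6 in clone 1 against wildtype, clone 2 against wildtype, rescue against clone 2, rescue against wildtype and clone 2 against clone 1, and pathway genes rose or fell in 39 and 32, 40 and 35, 20 and 39, 28 and 42, and 32 and 42. Replicate numbers were not taken as pairs: same-numbered libraries correlated between -0.082 and 0.116, and in no pair of groups were all 3 over 0.1. Of the single fold changes 409 values kept direction and call, and 5 that were never called changed sign: SERPINF1 in rescue against clone 2 gave -0.016 with upper quartile scaling, and -0.149 (without clone 2 replicate 3) to 0.213 (without clone 2 replicate 1) when 1 library was left out, with -0.021 without rescue replicate 2. ANGPT1 in clone 1 gave -0.257 (without clone 1 replicate 3) to 0.128 (without wildtype replicate 3), and VEGFB in clone 1 gave -0.107 to 0.029 (without clone 1 replicates 3 and 2). ANGPT1 in rescue against wildtype lost its call 4 times, at -0.57 with the DESeq2 Wald test and without 1 library as given above. VEGFA in clone 2 became called 2 times, as given above. The cause was not tested. Upper quartile scaling moved all genes of clone 2 against wildtype to 6413 higher and 4257 lower, and pathway genes to 44 and 28; in clone 2 against clone 1 pathway genes were then 33 and 34. With 19420408 counts or more per library, VEGFC, ANGPT2 and THBS1 remain at 0 to 10 reads, which limits what can be read from them.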
